A study of Rattus norvegicus with 8 samples.

Results

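Matrix metalloproteinases (MMPs) were examined as transcripts in the rat Achilles tendon. The 9 members, *Mmp2*, *Mmp3*, *Mmp11*, *Mmp14*, *Mmp15*, *Mmp16*, *Mmp19*, *Mmp23* and *Mmp24*, were taken by gene symbol from the 32883 genes listed, which hold 22 MMP genes. *Mmp9* and *Mmp13*, known for their roles in bone and growth cartilage, were not members and are described with the 11 remaining MMP genes. RNA came from the right Achilles tendon of 8 wild-type male Sprague-Dawley rats aged 8 to 10 weeks, a common outbred laboratory strain. In 4 rats the tendon was taken 12 h after a single treadmill run of 1 h at 20 m/min on a 10° incline (12 h p.r.), and 4 caged controls (NC) rested and were killed at the same time. Each library was one rat, the libraries were poly(A)-selected and stranded, and no treatment or genetic change was shared by the groups beyond the wild-type background. Whole tendon was used, so a lower transcript level could come from fewer cells of a type or from less RNA per cell, and these cannot be told apart here.

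MMPs are zinc-dependent endopeptidases that cleave components of the extracellular matrix, and also growth factors and receptors. They are made as inactive proenzymes, and tissue inhibitors of metalloproteinases (TIMPs) block the active forms. Some are secreted, and the membrane-type MMPs stay anchored at the cell surface, where MT1-MMP, the product of *Mmp14*, together with TIMP2 activates the *Mmp2* proenzyme. In tendon, whose dry mass is mostly collagen I, this family is known for turnover of the collagen matrix after loading and injury. Transcript levels report neither secretion nor activation of the enzymes.

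The libraries held 7350509 to 12951397 assigned reads per rat, and 14.5% to 18.8% of the reads fell on the 10 most abundant genes. Tendon identity was checked with 10 tenocyte markers, of which 0 were at 0 in any rat: *Tnmd* ranged from 223.6 to 391.6 CPM, reads per 1000000 assigned reads, and *Col1a1* from 11092 to 37602 CPM. These markers moved with the groups to some extent: 3 of 10 were higher at 12 h p.r. at an unadjusted p under 0.05, as were 5.44% of all genes. At an adjusted p 0 were, and the median log2 fold change was 0.34. Only *Scx* did not overlap between the groups, at 45.2 to 60.6 CPM at 12 h p.r. and 20.3 to 43.9 CPM in NC rats (6.06% of all genes did not overlap). The 10 markers summed to 20531 CPM in 12 h p.r. replicate 3 and to 34725 to 56640 CPM in the other 7 rats. Some libraries stood apart in tissue markers. The 8 skeletal muscle markers present in the table summed to 51246 CPM in 12 h p.r. replicate 3 and to 2383 to 9877 CPM in the 7 other rats. *Mb* and *Myh7* were not raised in replicate 3, at 283 and 51.2 CPM against medians of 311 and 367 CPM over the 8 rats. The remaining muscle markers were each highest in it. The 8 cartilage and bone markers summed to 490 CPM in 12 h p.r. replicate 1 and 1280 CPM in NC replicate 3, against 18.7 to 135 CPM in the other 6 rats. Values without these 3 rats stand beside the fold changes that they move.

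The members spanned more than 3 orders of magnitude in level, with *Mmp2* far above the rest. Levels between genes were compared in FPKM, the count scaled to gene length and to 1 factor per rat. *Mmp2*, gelatinase A, which degrades gelatin and basement membrane collagen, stood at 180, 198, 120 and 166 FPKM in the 12 h p.r. rats and at 285, 158, 307 and 306 FPKM in the NC rats. Its mean over the 8 rats was 215 FPKM, rank 374 among all genes listed, and it was the highest member in each rat. *Mmp2* alone made up 50.8% to 71.4% of the summed FPKM of the 9 members.

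Among the secreted enzymes, *Mmp3*, stromelysin-1, which cleaves proteoglycans and activates other proenzymes, was the most uneven of the 8 members with enough reads to test. It read 19.97, 97.8, 10.4 and 43.5 FPKM at 12 h p.r. and 25.7, 18.8, 52.5 and 43.8 FPKM in NC rats, a coefficient of variation of 71.4% over the 8 rats. The highest and the lowest rat were both 12 h p.r. rats. *Mmp19*, a secreted enzyme of broad substrate range, was the most even, with a coefficient of variation of 13.8%. It stood at 11.5, 12.8, 17.1 and 12.1 FPKM at 12 h p.r. and at 12.5, 12.4, 15.1 and 13.4 FPKM in NC rats, and the groups overlapped.

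The membrane-bound members formed a graded series. *Mmp14*, which cleaves fibrillar collagen at the cell surface, gave 34.5, 40.9, 33.9 and 34.2 FPKM at 12 h p.r. and 29.7, 27.1, 48.8 and 39.5 FPKM in NC rats. The NC rats spanned the whole 12 h p.r. range. *Mmp23*, whose protein is anchored by its amino end, gave 25.6, 22.3, 16.4 and 20.3 FPKM at 12 h p.r. and 30.3, 23.3, 24.7 and 21.98 FPKM in NC rats. The membrane-type enzyme *Mmp15* gave 10.4, 10.8, 13.8 and 9.25 FPKM at 12 h p.r. and 9.18, 9.52, 9.35 and 9.29 FPKM in NC rats, where the spread was small. *Mmp24*, best known from neurons, gave 4.43, 3.87, 6.28 and 4.92 FPKM at 12 h p.r. and 3.902, 4.42, 3.29 and 3.21 FPKM in NC rats. Its highest rat was 12 h p.r. replicate 3, and the groups overlapped. *Mmp16*, a further membrane-type enzyme, gave 4.60, 2.93, 1.92 and 3.81 FPKM at 12 h p.r. and 2.999, 2.64, 3.56 and 2.91 FPKM in NC rats. The 12 h p.r. rats lay on both sides of the NC rats.

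*Mmp11*, stromelysin-3, which is activated inside the cell by furin, was close to undetected. Its reads numbered 0, 1, 10 and 3 in the 12 h p.r. rats and 1, 0, 2 and 0 in the NC rats, 17 in all, and 10 of these came from 12 h p.r. replicate 3, the library with the highest muscle markers. A count of 0 allows up to 3 reads, or 0.227 to 0.395 CPM depending on the library, and no fold change was computed. This limit covers counting error only. In RefSeq *Mmp11* also overlaps the gene *Chchd10*, whose reads could be assigned to it if strand was not used in counting.

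In the order of mean FPKM, *Mmp2* (215), *Mmp3* (39.1), *Mmp14* (36.1), *Mmp23* (23.1), *Mmp19* (13.4), *Mmp15* (10.2), *Mmp24* (4.29), *Mmp16* (3.17) and *Mmp11* (0.0995), 7 of the 8 neighbouring pairs differed within rats (exact sign-flip permutation test on log2(FPKM + 0.1), two-sided, Benjamini-Hochberg over the 8 pairs). *Mmp3* and *Mmp14* did not differ beyond their spread: *Mmp3* was the higher in 4 of 8 rats (adjusted p = 0.594, exact sign-flip test). Of the pairs that differed, the highest adjusted p was that of *Mmp24* over *Mmp16*, in 6 of 8 rats (adjusted p = 0.0446, exact sign-flip test). *Mmp19* exceeded *Mmp15* in 8 of 8 rats (adjusted p = 0.0156, exact sign-flip test). Without 12 h p.r. replicate 2, the rat with the highest *Mmp3*, 4 pairs differed and *Mmp14* stood above *Mmp3*, as it did in the NC rats alone.

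**Figure D1:**
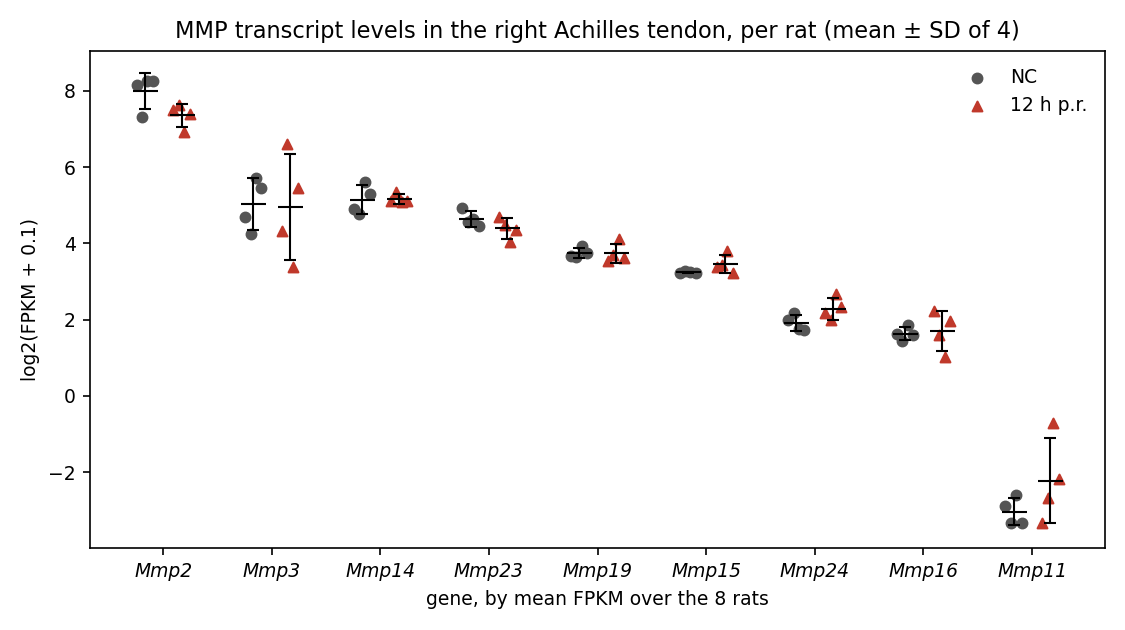
Levels of the 9 members as log2(FPKM + 0.1) on the vertical axis, ordered by mean FPKM on the horizontal axis. Each circle is 1 NC rat and each triangle 1 12 h p.r. rat, with the mean ± SD of 4 rats as bars, and the triangles and circles of each member overlap in height.

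The question of the design was what a single run changed in the tendon after 12 h. The tests on counts called none of the members. With edgeR (quasi-likelihood, p-values adjusted by Benjamini-Hochberg across 13937 genes), 0 of the 8 members tested passed an adjusted p of 0.05, where 0.00718% of all genes did (1 gene), and DESeq2 also called 0 members, where it called 96 of the 14015 genes to which it gave an adjusted p (0.685%). At an unadjusted p under 0.05, 1 member was higher and 1 lower at 12 h p.r., against 5.44% and 4.08% of all genes. Of the 8 members 5 had a positive and 3 a negative log2 fold change, with a median of 0.07 beside 0.02 over all genes tested. In 0 of 8 members were the groups without overlap in CPM, where 6.06% of all genes were.

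*Mmp2* had the lowest unadjusted p among the members. Its mean was 166 ± 33.3 FPKM at 12 h p.r. and 264 ± 71.3 FPKM in NC rats (SD over the 4 rats of each group). The log2 fold change in counts was −0.66 with a standard error of 0.24 (edgeR adjusted p = 0.464, unadjusted p = 0.0223). NC replicate 2, at 158 FPKM, lay below 3 of the 4 12 h p.r. rats, and the other 3 NC rats lay above all 12 h p.r. rats. The exact permutation test on log2(CPM + 0.5), two-sided, gave p = 0.114, where the smallest p that 4 against 4 allows is 0.0286. Over 21 alternative settings the log2 fold change of *Mmp2* was negative throughout, and the adjusted p ranged from 0.216 to 0.785.

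The 2 rats with the least *Mmp2* in their groups also had the least leukocyte marker RNA. This was not particular to leukocyte markers. The same 2 rats were lowest in their groups for *Mmp3* (10.4 and 18.8 FPKM) and *Timp2* (338 and 388 FPKM). They were also lowest in the summed osteoclast markers (149 and 192 CPM). The summed tenocyte markers went otherwise in the NC rats, with the lowest sum, 34725 CPM, in NC replicate 4. The mean log2 CPM of 7 leukocyte markers was 6.04, 6.53, 5.07 and 5.85 in the 12 h p.r. rats and 6.67, 5.28, 6.55 and 6.59 in the NC rats. The lowest values belonged to 12 h p.r. replicate 3 and NC replicate 2. The former was also the rat with the most skeletal muscle and the least tenocyte marker RNA, at 51246 and 20531 CPM. Of the 7 markers 0 passed an unadjusted p of 0.05 and 7 had a negative log2 fold change, where 6380 of the 13937 genes tested had one. Their summed level ranged from 625 to 2564 CPM at 12 h p.r. and from 884 to 3803 CPM in NC rats, and 0 of them were at 0 in any rat. With the leukocyte score as a covariate, a fit chosen after the data were seen, the log2 fold change of *Mmp2* was −0.39 (edgeR unadjusted p = 0.0122, adjusted p = 0.512). With the tenocyte score, likewise chosen after the data were seen, it was −0.77 (edgeR unadjusted p = 0.0101, adjusted p = 0.378). With the skeletal muscle score as a covariate it was −0.71 (edgeR unadjusted p = 0.00647, adjusted p = 0.302), and without the 3 rats that stood apart in muscle or bone markers it was −0.45 (edgeR unadjusted p = 0.169, adjusted p = 0.669).

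The opposite sign was seen for *Mmp24*, at 4.87 ± 1.03 FPKM at 12 h p.r. and 3.71 ± 0.567 FPKM in NC rats (SD over the 4 rats of each group). Its log2 fold change was 0.40 with a standard error of 0.17 (edgeR adjusted p = 0.507, unadjusted p = 0.0434). Without 12 h p.r. replicate 3, the rat with the highest muscle markers, the log2 fold change was 0.26, and without the 3 rats that stood apart it was 0.20 (edgeR unadjusted p = 0.332). In RefSeq an antisense-named gene, *Mmp24os*, overlaps *Mmp24*, and reads from the pair cannot be told apart if strand was not used in counting.

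The other 6 members had smaller differences for their error or none. *Mmp15* had a log2 fold change of 0.25 with a standard error of 0.12 (edgeR adjusted p = 0.549), and it was 0.13 without 12 h p.r. replicate 3 and 0.11 without the 3 rats. *Mmp23* had −0.24 with a standard error of 0.15 (edgeR adjusted p = 0.655). The differences of *Mmp14*, −0.01 with a standard error of 0.18, and of *Mmp19*, 0.01 with a standard error of 0.14, were well inside their errors, and without the 3 rats they were 0.23 and −0.033. *Mmp16* had 0.14 with a standard error of 0.25, and 0.25 without the 3 rats. *Mmp3* had the widest error, with a log2 fold change of 0.29 and a standard error of 0.62, and its sign turned to −0.51 when 12 h p.r. replicate 2 was left out. Without 12 h p.r. replicates 1 and 3 and NC replicate 3 it was 1.26 (edgeR unadjusted p = 0.0205).

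**Figure D2:**
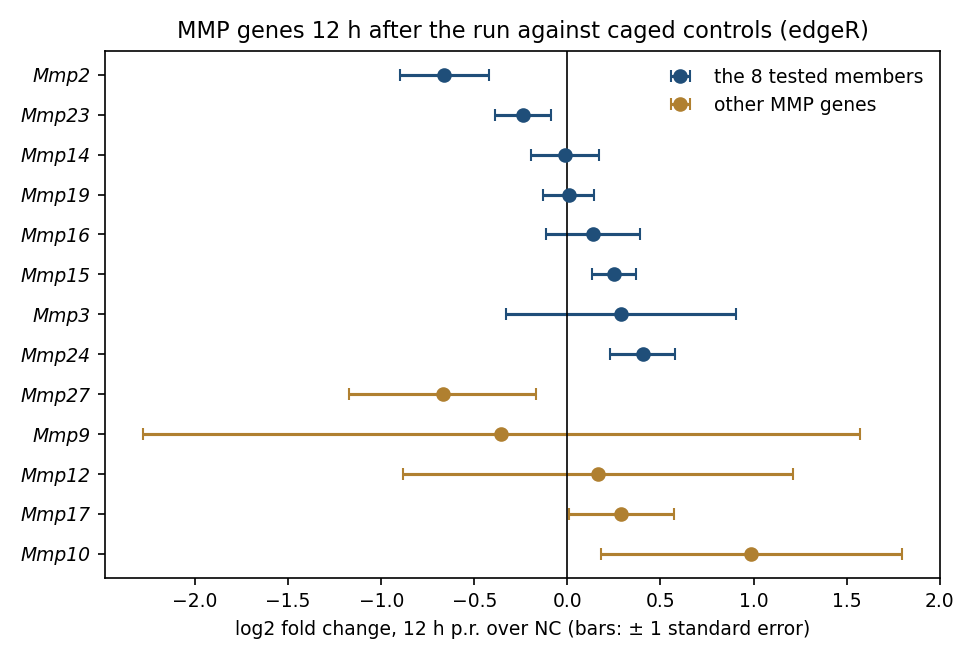
Log2 fold change of each tested MMP gene, 12 h p.r. over NC, on the horizontal axis, with bars of 1 standard error from edgeR. *Mmp2* at −0.66 and *Mmp24* at 0.40 lie farthest from 0 relative to their bars among the 8 members, and *Mmp9* has the widest bar of the 5 other MMP genes.

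Ratios of FPKM within a rat do not depend on the scaling between rats, and 5 of them were compared. The ratio of *Mmp2* to *Mmp14*, the gene of its activator, was 5.23, 4.83, 3.55 and 4.86 in the 12 h p.r. rats and 9.59, 5.84, 6.28 and 7.75 in the NC rats. All 4 of the 12 h p.r. rats lay below all 4 NC rats. The log2 difference was −0.66 with a standard error of 0.20 (exact permutation test, two-sided, p = 0.0286, adjusted p = 0.0714 over the 5 ratios). The smallest p that 4 against 4 allows is 0.0286. Only this ratio and the next reached it, which gave both an adjusted p of 0.0714 over the 5 ratios. Neither passed 0.05 after the correction. The ratio of *Mmp2* to *Timp2*, which encodes an inhibitor that also takes part in *Mmp2* activation, was 0.378, 0.356, 0.355 and 0.267 at 12 h p.r. and 0.476, 0.407, 0.587 and 0.612 in NC rats. Here too the groups did not overlap, with a log2 difference of −0.61 and a standard error of 0.18 (exact permutation test p = 0.0286, adjusted p = 0.0714). Without the 3 rats that stood apart the differences were −0.64 and −0.67, with 2 rats against 3 and too few for a test. Both ratios share *Mmp2* and are not independent of each other. *Mmp14* and *Timp2* each had a log2 fold change of −0.01. How often *Mmp2* over any other gene separates the groups was not computed, so the separation is not shown to be particular to these ratios.

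The remaining ratios did not separate the groups. *Mmp14* to *Timp2* differed by 0.05 on the log2 scale with a standard error of 0.26 (exact permutation test, adjusted p = 0.8). Against *Col1a1*, which encodes a chain of collagen I, the difference was −0.42 with a standard error of 0.39 for *Mmp2* and 0.24 with a standard error of 0.44 for *Mmp14* (exact permutation tests, adjusted p = 0.524 and 0.75). *Col1a1* itself varied from 11092 to 37602 CPM. The share of *Mmp2* in the summed FPKM of the members was 61.9%, 50.8%, 54.5% and 56.5% at 12 h p.r. and 71.4%, 61.7%, 66.1% and 69.5% in NC rats. The groups overlapped by one narrow margin, between 12 h p.r. replicate 1 and NC replicate 2.

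**Figure D3:**
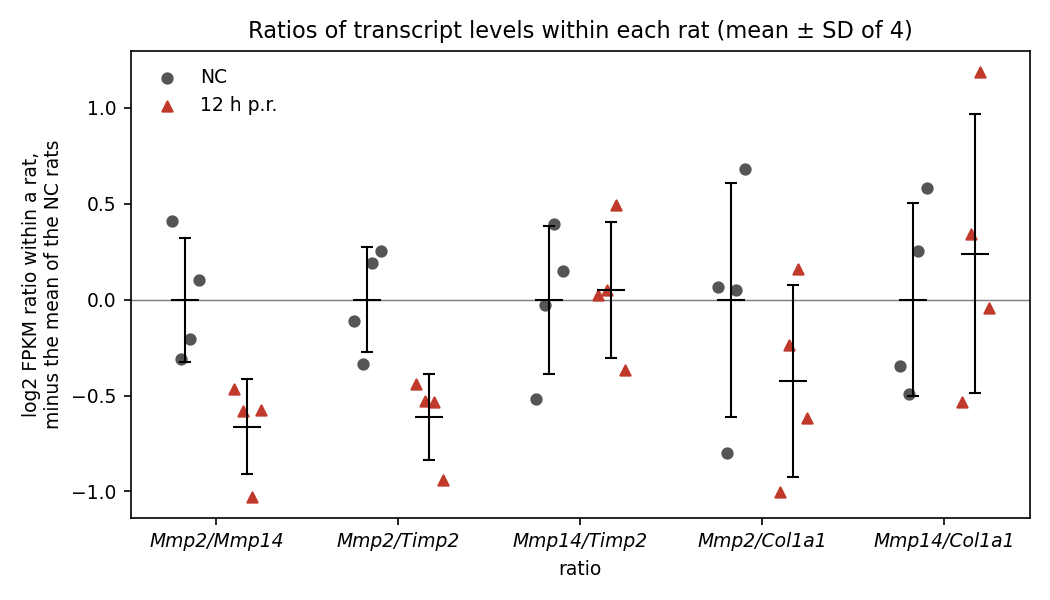
Log2 ratios of FPKM within each rat, set to 0 at the mean of the NC rats, on the vertical axis, for 5 gene pairs on the horizontal axis. Circles are NC rats and triangles 12 h p.r. rats with the mean ± SD of 4, and for *Mmp2* to *Mmp14* and *Mmp2* to *Timp2* the 4 triangles lie below the 4 circles.

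Some MMP genes varied together from rat to rat in both groups. Over 8 rats, 45 pairs of genes were compared in log2(CPM + 0.5), the 28 pairs of the 8 tested members and 17 that involve *Mmp10* and *Mmp12*. The correlations were added after the values were seen, and those with *Mmp10* and *Mmp12*, genes picked for their pattern, are a description with no test. *Mmp3* and *Mmp10*, which encode the stromelysins-1 and -2, gave Pearson's r = 0.93 and Spearman's rho = 0.93. Without the 2 rats farthest from the median of *Mmp3*, 12 h p.r. replicates 2 and 3, r was 0.90. The relation was present within the 12 h p.r. rats and within the NC rats, and whether reads were shared between these related genes was not tested. *Mmp3* with *Mmp12*, the macrophage elastase, gave r = 0.83 and rho = 0.76, and r was 0.71 without the same 2 rats.

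*Mmp10* read 2.33, 16.7, 1.18 and 5.54 FPKM at 12 h p.r. and 1.41, 1.15, 6.53 and 3.68 FPKM in NC rats. *Mmp12* read 1.64, 23.1, 1.32 and 2.82 FPKM at 12 h p.r. and 0.760, 2.87, 15.7 and 6.11 FPKM in NC rats. As for *Mmp3*, 12 h p.r. replicate 2 was the highest of its group for both genes and NC replicate 3 the highest of the NC rats.

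*Mmp2* and *Mmp24* varied in opposite directions, with r = −0.93 (exact permutation p = 0.000397, adjusted over the 45 pairs 0.0179) and rho = −0.88 (exact permutation p = 0.00724, adjusted 0.109). The permutation mixed the rats of both groups, between which these genes differed in opposite directions. As the pair was also examined after the values were seen, its p-values are a description. The correlation was −0.86 without the 2 rats farthest from the median of *Mmp2*, NC replicates 3 and 4, and −0.90 without 12 h p.r. replicate 3. Within the 12 h p.r. rats and within the NC rats it had the same sign, with 4 rats each and no test. Of the 28 pairs of members, 1 passed the correction by Pearson's r, this one, and 0 by Spearman's rho, against 3 and 4 at an unadjusted exact permutation p under 0.05. The share of all pairs of genes at these p-values was not computed, so the counts do not set MMP genes apart from other genes.

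**Figure D4:**
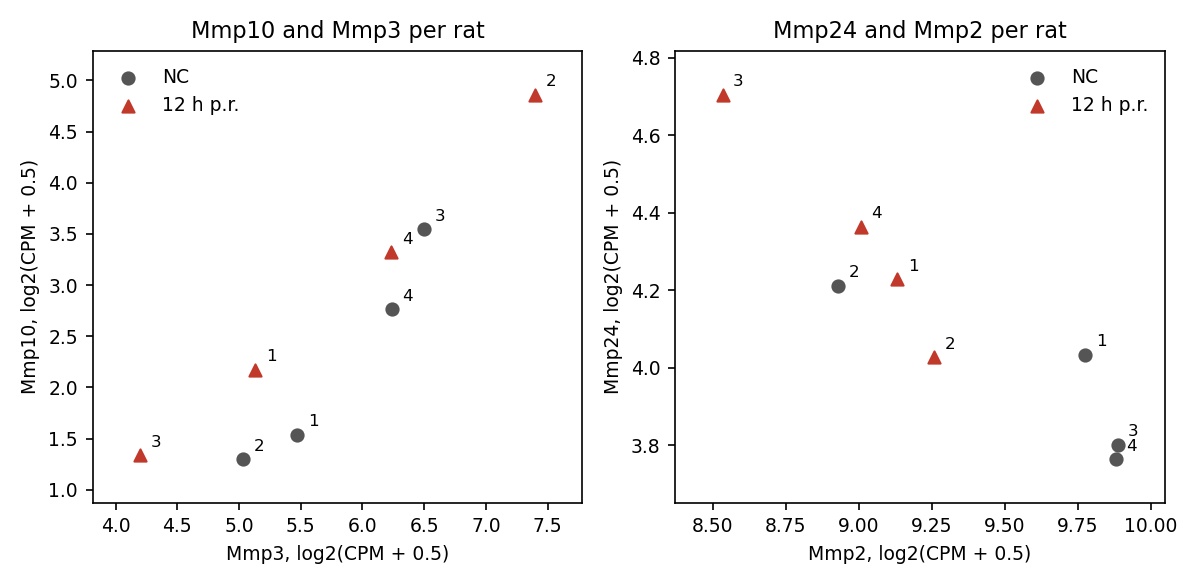
Each point is 1 rat, numbered by its replicate, with both axes in log2(CPM + 0.5). On the left *Mmp10* rises with *Mmp3* (r = 0.93), and on the right *Mmp24* falls as *Mmp2* rises (r = −0.93), over 8 rats, with circles for NC and triangles for 12 h p.r.

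The promoters of *Mmp3*, *Mmp10* and *Mmp12*, which varied together, and of *Mmp24*, which varied against *Mmp2*, are shown. The RefSeq promoter table on assembly GRCr8 held 5 of the 9 members, *Mmp3*, *Mmp11*, *Mmp15*, *Mmp23* and *Mmp24*, and 11 of the 13 other MMP genes, but no entry for *Mmp2*, *Mmp14*, *Mmp16* or *Mmp19*, while the reads were counted on Rnor_6.0. The 250 bases before the start are printed 5′ to 3′ for *Mmp3* at chr8:12925031-12925280, *Mmp10* at chr8:12974457-12974706, *Mmp12* at chr8:12866402-12866651 and *Mmp24* at chr3:164738976-164739225, all on the plus strand. Capitals mark TGANTCA, the site form bound by AP-1 factors, and TATAAA, the TATA box form, on either strand. In *Mmp10* the capitals TTTATAAA hold overlapping matches on both strands.
Mmp3: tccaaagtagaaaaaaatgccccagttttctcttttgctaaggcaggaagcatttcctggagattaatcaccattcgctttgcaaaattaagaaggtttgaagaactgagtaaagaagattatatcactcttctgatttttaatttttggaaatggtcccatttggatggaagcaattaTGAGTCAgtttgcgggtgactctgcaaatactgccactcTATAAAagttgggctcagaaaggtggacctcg
Mmp10: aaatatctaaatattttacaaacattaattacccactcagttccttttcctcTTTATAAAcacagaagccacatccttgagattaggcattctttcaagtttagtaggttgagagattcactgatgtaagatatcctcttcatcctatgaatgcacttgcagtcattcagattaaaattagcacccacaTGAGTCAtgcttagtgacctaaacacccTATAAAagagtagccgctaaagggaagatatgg
Mmp12: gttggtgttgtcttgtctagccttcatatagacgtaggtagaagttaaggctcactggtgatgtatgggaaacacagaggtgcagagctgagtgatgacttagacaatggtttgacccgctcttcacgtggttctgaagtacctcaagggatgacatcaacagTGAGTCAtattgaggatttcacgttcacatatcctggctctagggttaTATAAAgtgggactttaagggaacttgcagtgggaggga
Mmp24: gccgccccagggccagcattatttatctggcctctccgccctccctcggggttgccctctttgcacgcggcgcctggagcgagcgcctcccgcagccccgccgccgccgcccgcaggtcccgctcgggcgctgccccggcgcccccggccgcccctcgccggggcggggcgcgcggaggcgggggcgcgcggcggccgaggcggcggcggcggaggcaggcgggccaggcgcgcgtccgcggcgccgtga

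*Mmp3*, *Mmp10* and *Mmp12* lie on chromosome 8 in GRCr8 and each held a TGANTCA match, which began 71, 61 and 87 bases before the start. Each also had a TATAAA match nearer the start, at 32, 33 and 39 bases. In the windows of 300 bases, which reach 50 bases past the start, TGANTCA was found in 1 of the 5 members with a sequence, *Mmp3*, and in 6 of the 11 other MMP genes, against 7.33% of all 33469 promoters of that length. TATAAA was found in 1 of 5 members and 8 of 11 others, against 14.2% of all promoters, and 1.36% of all held both. The 6 others with TGANTCA were *Mmp1*, *Mmp7*, *Mmp10*, *Mmp12*, *Mmp13* and *Mmp20*, all on chromosome 8 and all with TATAAA too. Of these, *Mmp1*, *Mmp7* and *Mmp20* had 8, 1 and 0 reads in all, and *Mmp13* was high only in 12 h p.r. replicate 1 and NC replicate 3. With so few reads, or reads in so few libraries, it cannot be seen whether these genes varied with *Mmp3*, *Mmp10* and *Mmp12*. Whether the matches go with varying together was not tested. The *Mmp24* window had no match to either and was 83.7% G and C, against 42% in *Mmp3* and a median of 51.7% over all promoters. *Mmp11*, *Mmp15* and *Mmp23* held 65% to 68% G and C. A match describes letters in a window and does not show binding.

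The genes whose pattern over the 8 rats was most like a member's were listed for the 4 members of highest level, by Pearson's r in log2(CPM + 0.5) over 11149 genes of at least 5 CPM. For *Mmp2* they were *Rai14* (r = 0.99), *Cltc* (r = 0.96), the clathrin heavy chain, and *Cd163* (r = 0.96), a scavenger receptor of macrophages. For *Mmp3* they were *Cdon* (r = 0.97), *Lbp* (r = 0.96), which encodes the lipopolysaccharide-binding protein, and *Chi3l1* (r = 0.96). For *Mmp14* they were *Zfp217* (r = 0.96), *Rab3gap1* (r = 0.94) and *Hnrnpul1* (r = 0.94). For *Mmp23* they were *Sec23b* (r = 0.97), *Mt3* (r = 0.97), a metallothionein, and *Prickle1* (r = 0.96). These are the highest of many correlations over 8 rats that share library depth and composition, and are given as a description.

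The 13 other MMP genes were mostly low. The filter on low counts, which asks for reads in several libraries, left 5 for the test, and 0 of these passed an adjusted p of 0.05 by edgeR or DESeq2, or an unadjusted p of 0.05 by edgeR, with 3 positive and 2 negative log2 fold changes and a median of 0.16. *Mmp10* had the highest, 0.99 with a standard error of 0.81 (edgeR adjusted p = 0.729), and 1 rat or a few decided its size. It was −0.077 without 12 h p.r. replicate 2, 1.61 without NC replicate 3, and 2.38 without the 3 rats that stood apart (edgeR unadjusted p = 0.00548, adjusted p = 0.387). *Mmp12* had 0.16 with a standard error of 1.05, and it was −1.71 without 12 h p.r. replicate 2, 1.14 without NC replicate 3 and 1.98 without the 3 rats. *Mmp17*, a membrane-type enzyme held by a lipid anchor, stood at 0.562 to 1.18 FPKM with a log2 fold change of 0.29 and a standard error of 0.28, and −0.17 without the 3 rats. *Mmp27* stood at 0.193 to 1.89 FPKM, with −0.67 and a standard error of 0.50, and −0.0091 without the 3 rats.

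*Mmp9*, gelatinase B, and *Mmp13*, collagenase-3, were set by 2 libraries. *Mmp9* was at 86.6, 1.05, 0.238 and 1.13 CPM at 12 h p.r. and at 0, 1.10, 110 and 0.425 CPM in NC rats. *Mmp13* was at 50.7, 0.659, 0 and 0.0939 CPM at 12 h p.r. and at 0, 0, 111 and 0 CPM in NC rats. The rats high in both, 12 h p.r. replicate 1 and NC replicate 3, were the same rats that stood high in the cartilage and bone markers, at 490 and 1280 CPM. The log2 fold change of *Mmp9* was −0.35 with a standard error of 1.93, and it ranged from −5.08 without the former rat to 5.57 without the latter, and was 1.22 without the 3 rats. *Mmp13* had 1868 reads, nearly all in these 2 libraries with 1470 in NC replicate 3, and it did not pass the filter.

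The collagenase gene *Mmp1* had 0 reads in the 4 run rats and 3, 1, 2 and 2 reads in the NC rats, at or under the limit of 3 reads in each library, so no fold was computed. *Mmp8*, the neutrophil collagenase, had 10 reads in all 8 rats together, *Mmp1b* had 4, *Mmp21* had 2 and *Mmp7* had 1, while *Mmp20* and *Mmp28* had 0.

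Genes that activate, inhibit or bind MMPs were taken as a list of 27, of which 24 were tested. *Plg*, *Serpinf2* and *A2m*, made mainly in liver, were below the filter on low counts. By edgeR 0 of the 24 passed an adjusted p of 0.05, 0 were higher and 2 lower at an unadjusted p under 0.05 (5.44% and 4.08% of all genes), 9 had a positive and 15 a negative log2 fold change, and the median was −0.06 beside 0.02 over all genes. In 1 of the 24 the groups did not overlap, against 6.06% of all genes. DESeq2 called 1 gene, *Timp4*, against 0.685% of all genes.

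*Timp4*, an inhibitor gene, stood at 31.7, 19.8, 20.8 and 15.9 FPKM at 12 h p.r. and at 36.6, 37.5, 32.6 and 51.8 FPKM in NC rats. All 12 h p.r. rats lay below all NC rats. The log2 fold change was −0.84 with a standard error of 0.22, with an adjusted p of 0.422 by edgeR and 0.0453 by DESeq2, and from 0.0453 to 0.773 over the 21 alternatives. Without the 3 rats that stood apart the log2 fold change was −1.23 (edgeR adjusted p = 0.247). *Cldn1*, a tight junction protein that can bring membrane-type MMPs and *Mmp2* proenzyme together, stood at 3.56, 3.85, 3.02 and 2.74 FPKM at 12 h p.r. and at 7.23, 2.999, 5.83 and 7.58 FPKM in NC rats. NC replicate 2, the NC rat lowest in *Mmp2* and in leukocyte markers, was at the level of the 12 h p.r. rats. Its log2 fold change was −0.84 with a standard error of 0.27 (edgeR adjusted p = 0.433), and without the 3 rats it was −0.86 (edgeR unadjusted p = 0.0700).

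*Timp2* and *Timp3* were the most abundant inhibitor transcripts beside the members. *Timp2* stood at 338 to 622 FPKM at 12 h p.r. and 388 to 599 FPKM in NC rats, with a log2 fold change of −0.01 and a standard error of 0.21 (0.25 without the 3 rats), and *Timp3* had −0.19 with a standard error of 0.14.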

How the data were processed

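RNA-seq libraries of 8 tendons were analysed, for which the authors deposited raw counts per gene and FPKM. The study also sequenced tendons taken right after the run, which were not analysed here. The submitters' processing notes name HISAT2 2.1.0, featureCounts 1.6.3, DESeq2 1.30.1 and Rnor 6.0; the strand and multi-mapping settings of the counting are not given in the sources used here. The deposited FPKM equal a count divided by gene length and 1 factor per rat. The authors' own comparison table (fold changes, p-values, and 8 repeated FPKM columns not mapped here) was not used. The main test was edgeR 4.0.16 quasi-likelihood on the deposited counts (filterByExpr, TMM, Benjamini-Hochberg over all genes tested) in R 4.3.3, without covariates. Alternatives were DESeq2 1.42.0, limma 3.58.1 on log2 FPKM with a pseudocount of 0.1 or 1, other scalings and filters, marker scores as covariates, a replicate block and leaving out rats. Ratios, levels and correlations used exact permutation tests (scipy 1.17.1), two-sided, with a pseudocount of 0.5 CPM or 0.1 FPKM. The edgeR step was first tested on simulated data with larger fold changes than that of *Mmp2*, so its power for a change of that size was not measured.

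The members and lists were chosen with earlier results of these data known. Named genes were all members, other MMP genes with at least 10 reads, listed activation and inhibition genes with an unadjusted p under 0.05 plus *Timp2* and *Timp3*, and the 3 most correlated genes of each of the 4 highest members. *Mmp1*, *Mmp1b*, *Mmp7*, *Mmp20*, *Mmp21* and *Mmp28* were named to complete the family. Replicates were separate rats, and no pair of libraries agreed within sampling noise. Replicate numbers name different rats and did not pair the groups. Promoter sequences are from RefSeq on GRCr8.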

Additional observations from a re-analysis of the deposited data

Results flagged for a closer look

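Values that stood far from their group were searched for with Dixon's test in 42 groups of 4 rats, and 4 were found where chance gives about 2.1. *Mmp2* in NC replicate 2 was the lowest of its group at 8.93 in log2(CPM + 0.5), and the next NC rat was at 9.78. *Mmp14* in 12 h p.r. replicate 2 was the highest of its group at 6.66, and the next was at 6.42. *Mmp9* in 12 h p.r. replicate 1 was the highest at 6.44, and the next was at 0.70. *Mmp13* in NC replicate 3 was the highest at 6.80, with the other NC rats at 0 reads. The *Mmp9* and *Mmp13* values came from the rats with the highest cartilage and bone markers, and the part of these markers in the values was not tested.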

How the results depend on the processing

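With 4 rats a group, exact tests between groups cannot go below 0.0286. No member passed an adjusted p of 0.05 under any alternative run. The number of members at an unadjusted p under 0.05 was 2 in the main analysis. It was 1 with limma at either pseudocount, and with the cartilage and bone or the leukocyte score as a covariate. In these fits 7.48% to 9.3% of all genes were at that p. With the skeletal muscle score the number was 3, where 11.5% of all genes were at that p. It was 4 with the tenocyte score, where the share of all genes at that p was 11% against 9.51% in the main analysis. When rats were left out it was 0 to 2: 0 without NC replicate 1, 3 or 4, and 1 without 12 h p.r. replicate 3 or without the 3 rats that stood apart. In the fits with rats left out, 6.28% to 11.1% of all genes were at that p.

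Among the other MMP genes the number was 0 in the main analysis, where 9.51% of all genes were at that p. It was 1 without a filter (6.88% of all genes), with the cartilage and bone score (9.3%) and with the leukocyte score (8.63%). When rats were left out it was 0 to 1. It was 1 without NC replicate 3 (9.31% of all genes) and without the 3 rats that stood apart (9.17%). In the activation and inhibition list 1 gene passed by DESeq2, against 0.685% of all genes. At the unadjusted p 2 passed in the main analysis, and 6 with the tenocyte score, where 11% of all genes did. When rats were left out 2 to 6 passed. It was 4 without 12 h p.r. replicate 3 (11.1% of all genes) or NC replicate 2 (8.96%), and 6 without the 3 rats (9.17%). The causes were not tested.

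The fit with a replicate block gave 0 members at an unadjusted p under 0.05, where 6.99% of all genes were. The numbers do not pair the rats: same-number correlations were 0.07, −0.20, 0.13 and 0.09, and not every rat correlated best with its own number. Under the block *Mmp3* turned to −0.088, *Mmp14* to 0.023, *Mmp19* to −0.0046, *Mmp9* to 0.52 and *Mmp12* to −0.18.

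Signs of small differences turned. *Mmp3* was −0.067 and −0.081 with limma at pseudocounts of 1 and 0.1, −0.47 with the tenocyte score and −0.51 to 1.26 when rats were left out. *Mmp14* was 0.018 and 0.019 with limma at 1 and 0.1, 0.047 with the cartilage and bone score, 0.11 with the leukocyte score and −0.13 to 0.23 when rats were left out. *Mmp16* was −0.041 with the tenocyte score and −0.062 to 0.33 when rats were left out. *Mmp19* was −0.00070 with DESeq2, −0.00012 with RLE, −0.0015 with upper-quartile factors, −0.00060 without a filter, −0.0098 and −0.011 with limma at 1 and 0.1, −0.046 with the leukocyte score and −0.13 to 0.071 when rats were left out. *Mmp9* was 0.34 with limma at 0.1, 1.41 with the cartilage and bone score, 1.38 with the leukocyte score and −5.08 to 5.57 when rats were left out. *Mmp12* was −0.13 and −0.14 with limma at 1 and 0.1, −0.017 with the muscle score, −0.76 with the tenocyte score and −1.71 to 1.98 when rats were left out. *Mmp10* ranged from −0.077 to 2.38 and *Mmp17* from −0.17 to 0.45 when rats were left out. *Timp2* was 0.0033 with the cartilage and bone score, 0.15 with the leukocyte score and −0.13 to 0.25 when rats were left out. When rats were left out the log2 difference of *Mmp14* to *Timp2* ranged from −0.12 to 0.19 and that of *Mmp14* to *Col1a1* from −0.078 to 0.50, while those of *Mmp2* to *Mmp14* and *Mmp2* to *Timp2* stayed between −0.76 and −0.53 and between −0.72 and −0.50. Between 4 and 7 neighbouring pairs differed in level when rats were left out. The leukocyte and tenocyte scores were added after seeing the data.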
